A study of Homo sapiens with 12 samples.

Results

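The clustered histone genes of human cells were read here in RNA selected for a poly(A) tail, in 12 RNA-seq libraries of ARPE-19, an established cell line from human retinal pigment epithelium. The members were all protein-coding lines of the deposited count table whose symbol starts with HIST1 to HIST4, with H2AC, H2BC, H3C or H4C and a digit, or with H1- and a digit. This rule found 70 genes among 40591 named lines, and it used no expression value. By RefSeq positions on GRCh38.p14, 66 of them lie in the histone gene clusters. The larger cluster holds 55 members on chromosome 6, from 25726063 to 27893891, and the smaller holds 11 on chromosome 1, from 149782689 to 149887965. The 66 comprise 6 genes for linker histone H1, 16 for H2A, 17 for H2B, 13 for H3 and 14 for H4. The other 4 share the naming but stand alone, among them H1-10 and H1-8 on chromosome 3 and H1-7 on chromosome 12. A further 15 lines with such symbols had another gene type and were left out.

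Most clustered histone genes are replication-dependent: they are transcribed in S phase, when new nucleosomes are needed, and their mRNAs end in a short stem-loop bound by SLBP in place of a poly(A) tail. Some of them are also made as polyadenylated mRNAs that run past the stem-loop to a downstream cleavage site, and such forms are known from cells that have left the cell cycle or differentiated. Replacement histones such as H1-10 and H3.3 are encoded by stand-alone genes whose mRNAs carry a poly(A) tail at all times. A library made with oligo(dT) beads therefore sees chiefly the polyadenylated forms, and a level below is the level of those forms, not of all mRNA of the gene.

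The libraries fall into 4 groups of 3 that the labels call WT, GFP, GSTA4 and OSK, and all come from 1 cell line. The GFP, GSTA4 and OSK cells were stable lines in which an open reading frame (ORF) had been expressed for 4 days. GFP is the green fluorescent protein, GSTA4 is a glutathione transferase that acts on lipid peroxidation products, and OSK was read as the transcription factors POU5F1, SOX2 and KLF4. The labels give neither the vector nor the promoter that drives the ORFs, nor whether the 3 libraries of a group are separate cultures, nor how WT cells were kept. A difference between groups can therefore not be told apart from other differences between the lines, and the p-values measure the spread between these libraries, which may be technical.

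The libraries held between 12630675 (GFP replicate 1) and 17045454 reads (WT replicate 3). Levels are given as CPM, counts brought to 1 common library size with TMM factors, and 3 reads correspond to 0.177 to 0.228 CPM. The ORFs followed the labels: GSTA4 had a mean of 415.8 CPM in GSTA4 libraries and 8.79 in GFP, and POU5F1, SOX2 and KLF4 had 779, 628 and 928 CPM in OSK. Of 12 markers of retinal pigment epithelium, 10 had a mean of at least 1 CPM, while RPE65 and TTR reached at most 0.640 and 0.272 CPM in a library. Of the 6 pluripotency, 4 photoreceptor, 4 endothelial, 4 leukocyte and 5 fibroblast markers, 0, 1, 1, 0 and 1 had a mean of at least 1 CPM. GFP replicate 1 stood apart, with reads on 27349 named lines against 19488 to 22073 in the other 11 libraries.

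The letters of the stem-loop were sought in annotated transcript models, and reads over them were not examined. The GENCODE release 29 transcript models of 26 clustered members hold the consensus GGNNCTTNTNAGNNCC on the sense strand, against 110 of all 19684 protein-coding genes (0.559%). The arms of the stem pair with each other around a short loop, and SLBP binds this hairpin and the bases on either side. In H2AC6, H2BC5 and H2BC18 only 1 of 2 coding models holds the hairpin, and in H2BC15 2 of 3. The sequences below are shown for the 10 tested members whose models carry it, 5′ to 3′ as DNA on the sense strand, with the stem-loop in capitals.
H2AC6: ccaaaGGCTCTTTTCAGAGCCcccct
H2BC21: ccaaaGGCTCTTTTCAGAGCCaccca
H2BC5: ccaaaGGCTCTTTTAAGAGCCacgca
H4C9: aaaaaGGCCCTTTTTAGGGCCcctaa
H4C8: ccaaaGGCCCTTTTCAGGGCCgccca
H3C6: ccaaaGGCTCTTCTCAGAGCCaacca
H2BC15: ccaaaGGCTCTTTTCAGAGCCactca
H2BC18: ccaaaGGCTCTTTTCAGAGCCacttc
H2BC8: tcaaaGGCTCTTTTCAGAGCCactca
H2AC11: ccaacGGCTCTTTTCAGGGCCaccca

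The 26 genes carry 6 versions of these letters. The version of H2AC6, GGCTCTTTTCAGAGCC, occurs in 13 members, among them H2BC21 and H2BC8. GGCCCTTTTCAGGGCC and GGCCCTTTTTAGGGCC occur in 4 and 3 members, all of them H4 genes, and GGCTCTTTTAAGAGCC occurs in 4, among them H2BC5. H3C6 and H2AC11 each have a version of their own. In these models the stem-loop does not end the transcript: it is followed by 1114 bases in H2AC6, 1729 in H2BC21, 630 in H4C8, 212 in H4C9, 1862 in H3C6, 377 in H2BC15, 1479 in H2BC18, 1059 in H2BC8 and 1761 in H2AC11, but only by 39 in H2BC5.

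Reads were unequal among the members according to what the models say of the 3′ end. In 20 clustered genes at least 1 model runs more than 100 bases past the stem-loop. In 16 of these genes the longest coding model has a poly(A) signal (AATAAA or ATTAAA) in its last 50 bases. That model need not be the one measured past the stem-loop. These 20 genes held 72.7% of all reads on the clusters, with a median of 69.5 reads over the 12 libraries, and 9 of them passed the filter on low counts. In 31 genes the models hold the coding part only; their median was 2 reads and 2 of them, H2BC12 and H1-2, passed. In 6 genes the models that hold the stem-loop end within 100 bases of it. Their median was 6.5 reads, and only H2BC5 passed, which has 2 coding models, 1 of them with the stem-loop. A gene model that stops early also counts fewer of the reads that a longer transcript would give. The annotation release the authors counted on is not given in the sources used here, so the part of this in the difference was not tested.

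**Figure D1:**
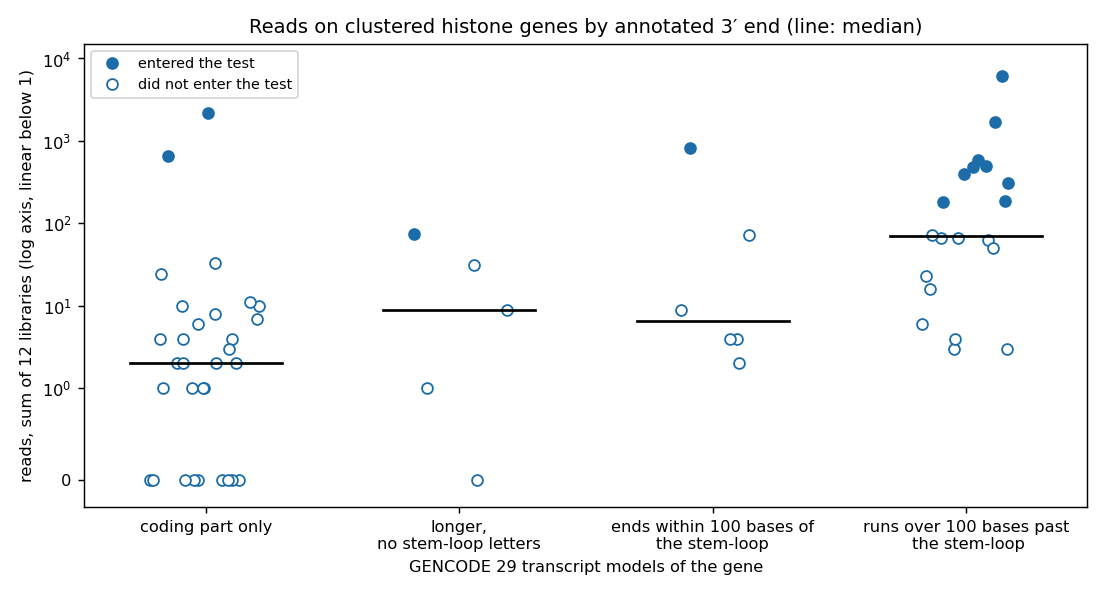
Reads summed over the 12 libraries for each clustered histone gene (vertical axis, log scale above 1 and linear below), by what its GENCODE 29 transcript models contain (horizontal axis). Each circle is 1 gene, filled where it passed the filter on low counts, and the line is the median: 69.5 reads where a model runs over 100 bases past the stem-loop, and 2 where the models hold the coding part only.

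A few genes carried most of the signal. The clusters held 15011 reads over the 12 libraries, between 0.00394% and 0.0184% of the reads of a library. H2AC6 (older name HIST1H2AC, an H2A gene at chromosome 6, 26124172 to 26124690) held 41.2% of them. H2BC12 (HIST1H2BK) held 14.5%, H2BC21 (HIST2H2BE) 11.5%, H2BC5 (HIST1H2BD) 5.46% and H1-2 (HIST1H1C, a linker histone) 4.43%. By class, H2A genes held 44.7%, H2B genes 38.1%, H4 genes 8.70%, H1 genes 4.54% and H3 genes 3.95% of the cluster reads. Per kilobase of exon in the GENCODE models, H2AC6 stood at 39.0 CPM in WT and 8.89 in GFP, H2BC5 at 10.6 and 1.53, H2BC21 at 5.32 and 2.91, and H3C6 at 1.37 and 0.727. H2BC12 and H1-2 are left out of that order because their models in this release hold only the coding part.

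Of the 70 members, 11 had no read in any library and 38 had fewer than 10 in all. The filter kept 15 members, 13 of them in the clusters, and the other 55 had between 0 and 73 reads over the 12 libraries. A gene could pass through its high group alone, so the counts below describe 15 genes and not the family. Genes known from the male germ line had few or no reads, as had most of the 70 members. H2AC1 and H2BC1 had 0 reads, which allows up to 0.228 CPM in the shallowest library. H1-6 had 1 read, and 0 of 4 listed germ-line genes entered the test. Since mRNA without a poly(A) tail is largely missed here, these counts do not show that a gene is silent. The linker histone genes H1-1, H1-4 and H1-5 had 2, 9 and 1 reads, against 665 on H1-2. GFP replicate 1 had reads on 41 members against 28 to 36 in the other libraries. For 7 members (H1-3, H1-6, H2BC14, H2BC9, H3C11, H3C7 and H3C8) it was the only library with any.

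Some members cannot be separated by their reads. In 12 of the 66 members with a GENCODE model, more than 50% of the 100-base windows of the exons recur elsewhere in the annotated transcripts, and in H3C4, H3C14, H3C15, H4C12 and H4C14 all of them do. The share was 0% for H2AC6, H2BC5 and H3C6, 2.63% for H2BC21, 5.88% for H2BC18 and 28.4% for H2BC12. By RefSeq positions H4C9 lies within the span of H2BC12, on the other strand, H2BC5 overlaps H2BC6-AS1 and LARP1P1, H2BC18 overlaps FCGR1A and LOC124904411, and H1-10 overlaps H1-10-AS1. The strand setting of the counting is not given in the sources used here, so reads from the overlapping parts cannot be told apart.

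The summed level of the 66 clustered genes was lowest in GFP. The WT libraries had 179, 102 and 87.7 CPM, the GFP libraries 46.5, 39.2 and 42.2, the GSTA4 libraries 86.5, 62.3 and 62.5, and the OSK libraries 112.5, 94.6 and 91.5. No GFP library reached any library of another group, and replicate 1 had the highest sum in each of the 4 groups. The mean was 42.6 CPM ± 3.64 for GFP, 70.4 ± 13.9 for GSTA4, 99.5 ± 11.3 for OSK and 123 ± 49.1 for WT (SD, n = 3). WT and OSK overlapped, and WT replicate 1 was far above the other WT libraries. Without H2AC6 the means were 27.8 CPM ± 2.697, 47.8 ± 6.30, 65.1 ± 6.15 and 58 ± 17.1 in the same order (SD, n = 3), so that OSK and not WT had the highest mean. Over all 70 members the means were 152 CPM ± 6.40, 184.5 ± 24.4, 264 ± 2.54 and 242 ± 48.7 (SD, n = 3). In bulk RNA, fewer cells that make these mRNAs and less of them per cell cannot be told apart.

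**Figure D2:**
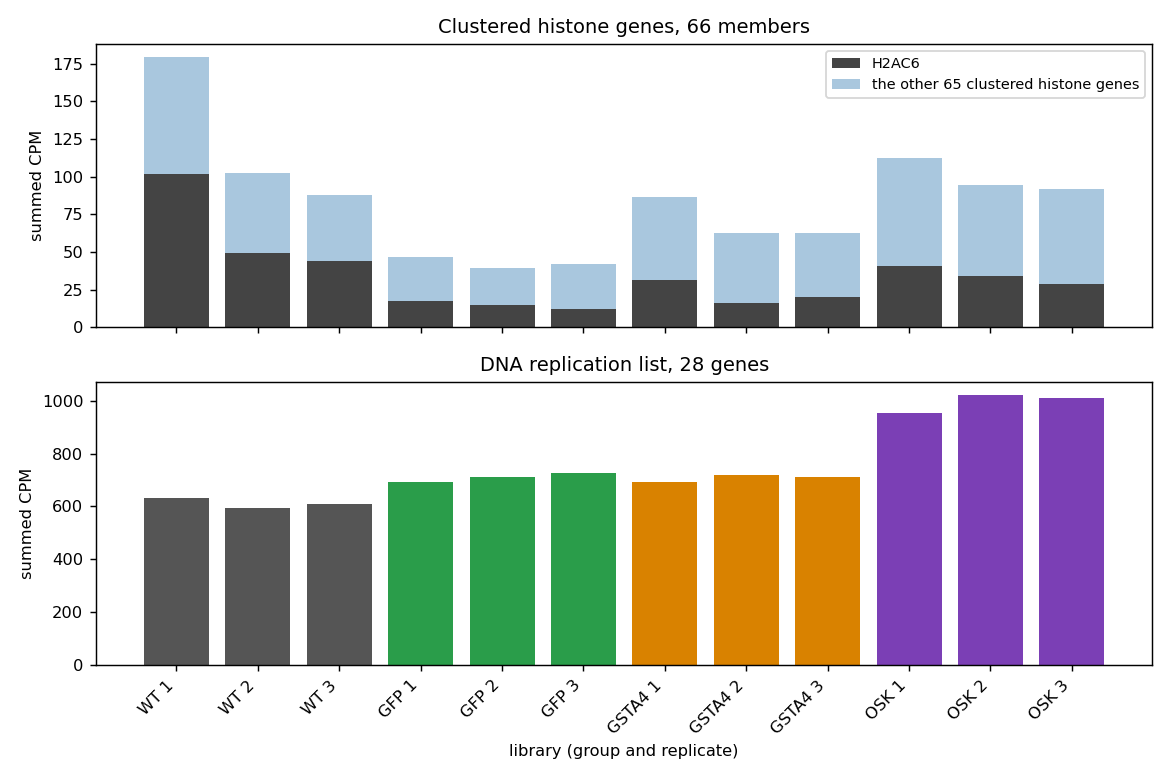
Summed CPM per library (vertical axis, horizontal axis the 12 libraries) of the 66 clustered histone genes, split into H2AC6 and the other 65 (top), and of 28 DNA replication genes (bottom). The 3 GFP libraries have the lowest histone sums, 39.2 to 46.5 CPM, while the replication genes are lowest in WT and highest in OSK.

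GFP against WT asks how the cells with a control ORF differed from the cells labelled WT. The polyadenylated histone mRNAs were lower in GFP: of the 15 tested members 8 were called lower and 0 higher (edgeR quasi-likelihood test, adjusted p under 0.05), all 8 in the clusters. Among all 15179 genes tested, 22.2% were called, 11% as higher and 11.2% as lower. The median log2 change of the 13 clustered members was -1.22, against 0.01 over all genes. The 8 are 1 H2A gene (H2AC6), 4 H2B genes (H2BC12, H2BC21, H2BC5, H2BC8), and H1-2, H4C8 and H3C6.

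H2AC6 encodes a core histone H2A and had 102, 49.2 and 43.7 CPM in WT against 17.6, 14.5 and 12.4 in GFP. All WT libraries were above all GFP libraries, with WT replicate 1 at more than the sum of the other WT libraries. The log2 fold change was -2.14 (SE 0.266, edgeR adjusted p 1.1e-05). H2BC5, an H2B gene, had 14.6, 6.76 and 6.20 CPM in WT and 1.98, 0.717 and 1.29 in GFP. Here too WT replicate 1 was the highest and the groups did not overlap, with a log2 change of -2.80 (SE 0.393, edgeR adjusted p 4.18e-05).

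H1-2, a linker histone that binds DNA between nucleosomes, had 5.60, 3.89 and 3.42 CPM in WT and 0.836, 1.79 and 1.97 in GFP. The groups did not overlap and the log2 fold change was -1.47 (SE 0.287, edgeR adjusted p 0.00106). H2BC21, an H2B gene of the chromosome 1 cluster, had 14.4, 10.1 and 10.5 CPM in WT and 5.86, 6.95 and 6.32 in GFP, a log2 change of -0.87 (SE 0.164, edgeR adjusted p 0.000756). H2BC12 had 10.4, 12.04 and 8.85 CPM against 6.92, 5.74 and 7.34, a change of -0.64 (SE 0.171, edgeR adjusted p 0.0108) that lost its call without GFP replicate 2 (-0.54, adjusted p 0.0642). Neither gene had an outlying WT library of the size seen in H2AC6.

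The remaining calls rested on lower counts. H4C8 (HIST1H4H, an H4 gene) had 6.16, 2.13 and 1.53 CPM in WT and 1.29, 0.789 and 0.883 in GFP, a log2 change of -1.73 (edgeR adjusted p 0.0151). H3C6 (HIST1H3E, the only tested H3 gene) had 4.29, 3.97 and 2.77 CPM in WT and 2.51, 1.43 and 1.90 in GFP, a change of -0.91 (edgeR adjusted p 0.0321). H2BC8 had 3.42, 1.25 and 1.00 CPM in WT and 0.228, 0.143 and 0.815 in GFP, a change of -2.21 (edgeR adjusted p 0.00967). In these 3 genes the groups did not overlap, and WT replicate 1 was highest in each. H4C9, H2BC15, H2AC11, H2BC18 and H2BC11 had log2 fold changes from -1.62 to -0.45 and were not called.

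Libraries that stand apart touched this comparison. Without WT replicate 1, 6 members were called. H1-10 gained a call (-0.24, edgeR adjusted p 0.045), and 3 were lost: H4C8 was at -0.88 (edgeR adjusted p 0.173), H3C6 at -0.79 (0.105) and H2BC8 at -1.46 (0.108). Without GFP replicate 2, 4 were called. RN7SL1, an abundant RNA made without a poly(A) tail, had 154, 93.6 and 83.5 CPM in WT and 152, 130.4 and 81.3 in GFP, so its level was high in WT replicate 1 as well, and its group means were 110.3 and 121.3 CPM. The part of such RNA in the histone levels was not tested.

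OSK against GFP asks what the 3 reprogramming factors changed relative to the control ORF. Of the 15 tested members 11 were called higher in OSK and 0 lower, where 45.9% of all genes were called, 23.1% as higher and 22.8% as lower. The median log2 fold change was 1.22 over the 13 clustered members and -0.02 over all genes. The 9 clustered genes called were H2AC6 and H2AC11, the H2B genes H2BC12, H2BC21, H2BC5 and H2BC11, the linker histone H1-2, and the H4 genes H4C9 and H4C8. In 11 of the 13 clustered genes each OSK library was above each GFP library, against 54.7% of all genes without overlap in either direction.

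H2BC12 had 17.7, 15.8 and 20.0 CPM in OSK against 6.92, 5.74 and 7.34 in GFP. Each OSK library had more than the highest GFP library 2 times over, with a log2 change of 1.42 (SE 0.164, edgeR adjusted p 4.89e-07). H2BC21 had 16.6, 13.99 and 12.7 CPM in OSK against 5.86, 6.95 and 6.32, a log2 change of 1.18 (SE 0.162, edgeR adjusted p 4.83e-06). H1-2 had 6.26, 6.01 and 4.93 CPM in OSK against 0.836, 1.79 and 1.97, a log2 change of 1.89 (SE 0.282, edgeR adjusted p 1.36e-05). These 3 genes had the lowest adjusted p among the clustered members.

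H2AC6 had 40.3, 33.9 and 28.9 CPM in OSK and at most 17.6 in GFP, a log2 change of 1.22 (SE 0.273, edgeR adjusted p 0.00101). H2BC5 had 6.83, 3.99 and 4.08 CPM in OSK and at most 1.98 in GFP, a log2 change of 1.90 (SE 0.413, edgeR adjusted p 0.000774). The H4 genes H4C9 and H4C8 had 4.70, 4.05 and 4.08 CPM and 4.91, 2.53 and 2.53 CPM in OSK. Their log2 fold changes were 1.06 (edgeR adjusted p 0.00232) and 1.74 (edgeR adjusted p 0.00646). H2BC11, with 1.14, 0.506 and 0.774 CPM in OSK and 0.228, 0.0717 and 0.204 in GFP, was called at 2.20 (edgeR adjusted p 0.0182), but not without OSK replicate 1 (adjusted p 0.086) or GFP replicate 2 (0.0826), and its GFP libraries held 1 to 3 reads each. H3C6, H2BC15, H2BC18 and H2BC8 were not called, with log2 changes of 0.35, 0.58, 1.599 and 0.55.

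The direction depends on which control is taken. Against WT, in the same fit, 6 of the 15 members passed in OSK, 3 higher and 3 lower, where 45.4% of all genes did. In GSTA4 against WT 4 of 15 passed, 1 higher and 3 lower, where 38.6% of all genes did. In OSK, H2BC12 (log2 fold change 0.78, edgeR adjusted p 0.000321) and H1-10 (0.42) were among the higher, and H2AC6 (-0.92, adjusted p 0.00389), H2BC5 (-0.89, adjusted p 0.0305) and H2BC8 (-1.66, adjusted p 0.0165) were lower. H2AC6 in OSK, at a mean of 34.4 CPM ± 5.73 (SD, n = 3), thus lay above GFP at 14.8 ± 2.66 and below WT at 64.98 ± 32.2. H2BC12 was above both, at 17.8 CPM ± 2.11 in OSK, 6.66 ± 0.831 in GFP and 10.4 ± 1.597 in WT (SD, n = 3). GFP against WT and OSK against GFP share the 3 GFP libraries, so their opposite signs for a gene are not independent of each other.

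**Figure D3:**
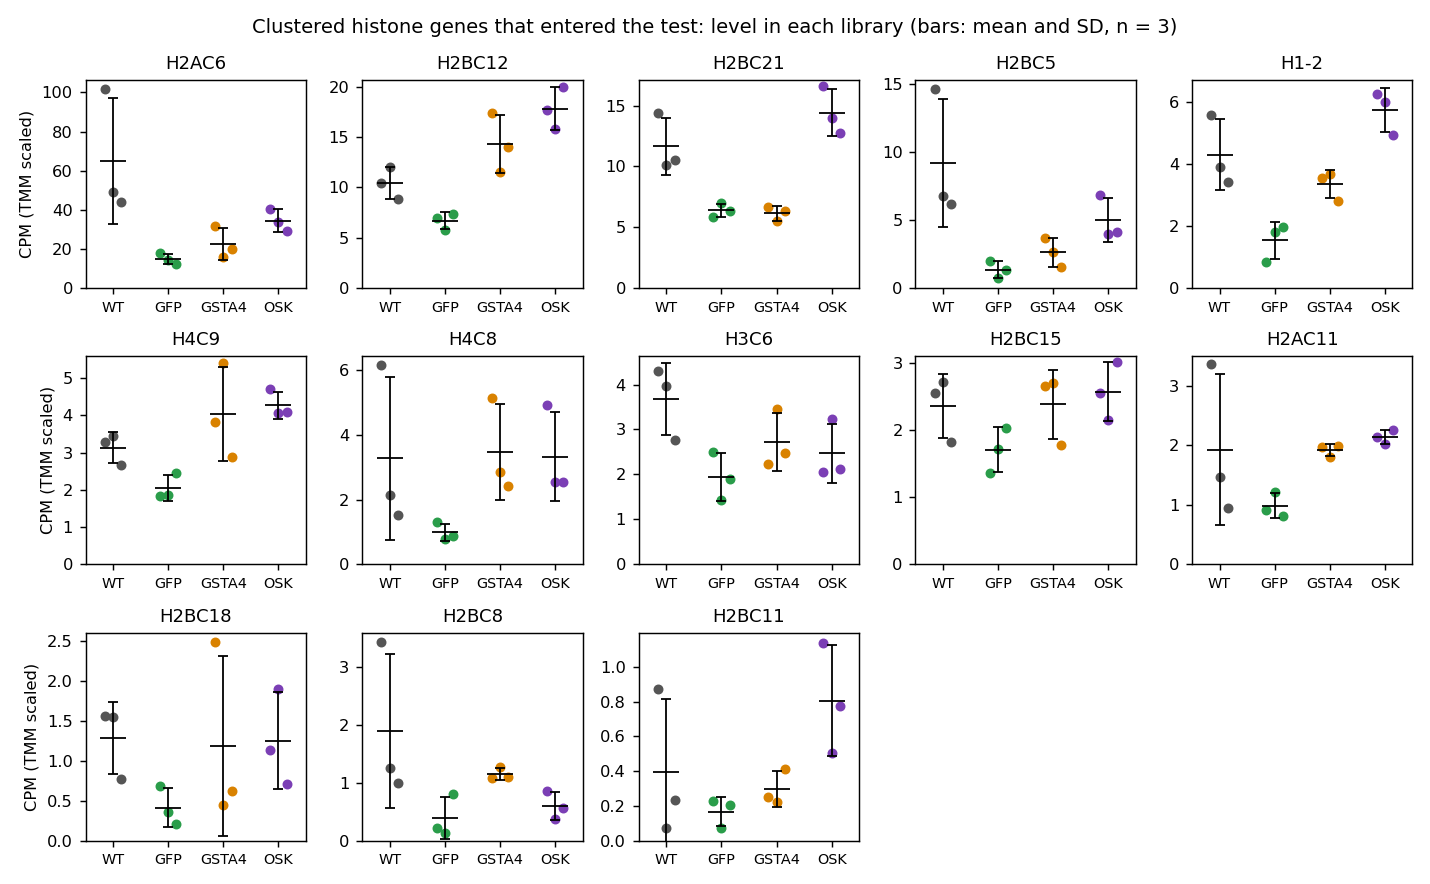
CPM (vertical axis, a scale of its own in each panel) of the 13 clustered histone genes that passed the filter, in the libraries of the 4 groups; points are libraries, the long line the mean and the bar the SD of 3 libraries, cut at 0 where it would go below. H2AC6 and H2BC5 have a high WT replicate 1 (102 and 14.6 CPM), H2BC12 is highest in OSK, and H2BC21 is raised in WT and OSK only.

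GSTA4 against GFP asks what the glutathione transferase changed relative to the same control, and the 3 GFP libraries are again shared. Of the 15 tested members 4 were called higher and 0 lower, where 29.2% of all genes were called, 14.7% as higher and 14.6% as lower. They were H2BC12, H1-2, H4C9 and H4C8. The median log2 change of the 13 clustered members was 0.97, against 0.01 over all genes, and in 6 of them each GSTA4 library was above each GFP library, where 42.3% of all genes did not overlap.

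H2BC12 had 17.4, 11.6 and 13.97 CPM in GSTA4 and at most 7.34 in GFP, a log2 change of 1.10 (SE 0.167, edgeR adjusted p 3.62e-05). H1-2 had 3.56, 3.68 and 2.82 CPM and at most 1.97 in GFP, a log2 change of 1.11 (SE 0.296, edgeR adjusted p 0.00738). H4C8 had 5.15, 2.85 and 2.41 CPM and at most 1.29 in GFP, a log2 change of 1.82 (SE 0.490, edgeR adjusted p 0.00794), and H4C9 had 3.81, 5.40 and 2.89 CPM and at most 2.45, a change of 0.97 (SE 0.262, edgeR adjusted p 0.00834). For these 4 genes no GSTA4 library fell within the GFP range.

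For the most abundant clustered gene the call depended on the setting. H2AC6 had 31.7, 15.99 and 20.1 CPM in GSTA4, and replicate 2 lay within the GFP range of 12.4 to 17.6. Its log2 change of 0.62 (SE 0.281) was not called in the main fit (edgeR adjusted p 0.105). With only the 6 libraries compared it was called, at 0.60 (edgeR adjusted p 0.00694). With 1 library left out at a time, its edgeR adjusted p ran from 0.0038 (without WT replicate 1) to 0.518. H2BC21 had 6.67, 5.48 and 6.33 CPM, within or just below the GFP libraries, with a log2 change of -0.05 (SE 0.175, edgeR adjusted p 0.874). H2BC5 was at 0.99 (edgeR adjusted p 0.104) and H2BC8 at 1.49 (edgeR adjusted p 0.0736). H4C8 lost its call without GSTA4 replicate 1 (adjusted p 0.0637) and H4C9 without GSTA4 replicate 2 (0.0685). Without WT replicate 1, which is in neither group, 9 of 16 members passed, and the filter then kept 15612 genes in place of 15179.

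OSK against GSTA4 sets the ORFs against each other without the GFP libraries. Of the 15 tested members 5 were called higher in OSK and 0 lower, where 47.8% of all genes were called, 24.1% as higher and 23.8% as lower. The 3 in the clusters were H2BC21, H2BC5 and H1-2, and H1-10 was also called. H2BC21 showed the difference most clearly, with 16.6, 13.99 and 12.7 CPM in OSK against 6.67, 5.48 and 6.33 in GSTA4, a log2 change of 1.22 (SE 0.162, edgeR adjusted p 2.35e-06). The same H2B class held genes that did not pass: H2BC12 was at 0.31 (SE 0.151, edgeR adjusted p 0.0967), with GSTA4 replicate 1 (17.4 CPM) above OSK replicate 2 (15.8).

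H1-2 had a log2 change of 0.77 (edgeR adjusted p 0.0156) and H2BC5 of 0.91 (edgeR adjusted p 0.0474), and in both the groups did not overlap. Without GSTA4 replicate 3, or without OSK replicate 1, both calls were lost and 3 members remained past the threshold; adjusted p values were 0.0721 and 0.0515 for H1-2, and 0.209 and 0.229 for H2BC5. H4C9 and H4C8, the H4 genes that were higher than GFP with either ORF, were at 0.09 and -0.08 here (edgeR adjusted p 0.792 and 0.898). Of the 13 tested clustered genes, 5 had each OSK library above each GSTA4 library and 1 had each below, where 58% of all genes did not overlap. That 1 was H2BC8, with 0.854, 0.380 and 0.563 CPM in OSK and 1.08, 1.28 and 1.10 in GSTA4, at a log2 change of -0.94 that was not called (edgeR adjusted p 0.187).

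Across the 4 groups, 10 of the 15 members differed by the F test of the same fit (edgeR adjusted p under 0.05), where 66.9% of all genes did. In order of their means, H2BC12 ran from GFP over WT and GSTA4 to OSK, and WT and GSTA4, like GSTA4 and OSK, overlapped. H2BC21 had GFP and GSTA4 together at 6.38 and 6.16 CPM, and WT and OSK together at 11.7 and 14.4. H1-2 rose in order from GFP (1.53 CPM) over GSTA4 (3.35) and WT (4.30) to OSK (5.73), with overlap of GSTA4 and WT, and of WT and OSK. H2AC6 and H2BC5 had the order GFP, GSTA4, OSK, WT. H3C6, H2BC15, H2AC11, H2BC18 and H2BC11 did not pass the F test.

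**Figure D4:**
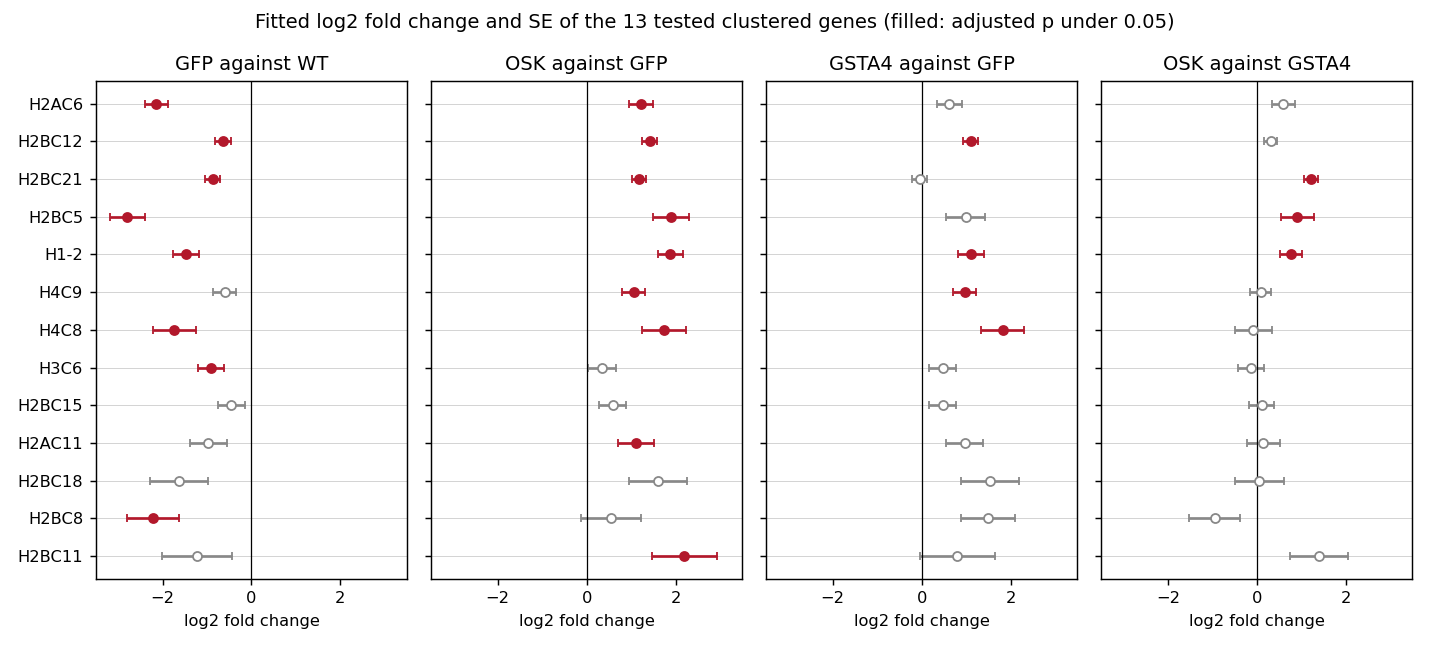
Log2 fold change (horizontal axis) with its SE for the 13 clustered members that were tested (rows) in the 4 comparisons; filled points had an edgeR adjusted p under 0.05. Calls lie below 0 in GFP against WT and above 0 in the other comparisons, 9 of the 13 genes in OSK against GFP.

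Outside the clusters, the linker histone gene H1-10 was higher in OSK. It had 77.8, 77.3 and 80.3 CPM in OSK and 46.0 to 62.1 CPM in the other 9 libraries, so that OSK did not overlap with them. It was at 0.63 on the log2 scale against GFP (SE 0.0779, edgeR adjusted p 1.16e-06) and at 0.47 against GSTA4 (SE 0.0772, adjusted p 3.51e-05). In GFP against WT it was at -0.21 (SE 0.0786, edgeR adjusted p 0.061), or past the threshold without WT replicate 1 (adjusted p 0.045), with means of 50.7 CPM ± 4.10 in GFP and 58.6 ± 2.82 in WT (SD, n = 3). H1-8, known from oocytes, and H1-7, known from the testis, had 3 and 16 reads in all.

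A list of 8 members known to have polyadenylated transcripts, chosen with earlier results of these data known, held H2BC5, H2BC21, H2BC12, H2AC6, H2BC4, H2BC11, H4C8 and H1-2. All but H2BC4 entered the test. Of these 7, 0 were higher and 6 lower in GFP against WT, 7 higher and 0 lower in OSK against GFP, 3 and 0 in OSK against GSTA4, and 3 and 0 in GSTA4 against GFP (edgeR). Of all genes, 22.2%, 45.9%, 47.8% and 29.2% were called in these comparisons, and the counts are not independent of how the list was chosen. H2BC4 had 7 reads over the 3 WT libraries, 11 over GFP, 15 over GSTA4 and 33 over OSK.

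H2BC4 and H2AC6 start 245 bases apart and are transcribed away from each other, and they show how unequal such neighbours were. Among the 61 clustered genes with a RefSeq promoter window (described below), 11 pairs of genes (21 genes) start on opposite strands less than 350 bases apart. Of these pairs, 10 join an H2A and an H2B gene. Genes without a window were not searched. One of them is H2AC12 (10 reads), which starts at 27147106 on the plus strand. H2BC12 (2172 reads) starts at 27146858 on the minus strand, so this close pair is missing from the count. Per kilobase of exon, H2AC6 had a mean of 20.5 CPM over the 12 libraries and H2BC4 0.451. H2BC21 had 4.40 and its neighbour H2AC20, at 235 bases, 0.346, over a model that holds the coding part only. H2BC8 and H2AC8, at 232 bases, had 0.658 and 0.794, and H2BC11 and H2AC11, at 247 bases, 0.438 and 0.774. H2BC15 had 0.413 and H2AC15, also with a coding part only, 0 reads. The levels were far apart in the pairs that hold H2AC6, H2BC21 and H2BC15, and closer in those that hold H2BC8 and H2BC11.

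Promoters of clustered histone genes hold known elements, and these differed between the classes. RefSeq's windows from 250 bases before to 50 after the start (GRCh38.p14) were found for 61 of the 66 clustered genes, and all were searched on both strands. The octamer ATTTGCAT, bound by POU2F1 at H2B promoters, was in 14 of 17 H2B, 11 of 15 H2A, 1 of 11 H3, 0 of 12 H4 and 0 of 6 H1 windows, against 1.77% of all 35116 promoter windows. Windows of neighbours that start close together on opposite strands overlap, so 1 match can be counted for both an H2A and an H2B gene. The H3 window with an octamer, that of H3C4, covers the same bases as that of H2AC7. TATAAA was in 41 of 61 (67.2%), against 11.5% of all, and CCAAT in 52 of 61 (85.2%), against 34.6%. Of the called H4 genes, H4C8 held none of the 3 elements and H4C9 only CCAAT, which was also the only 1 in H1-2. The 130 bases before the start are shown for the H2A and H2B genes with most reads, 5′ to 3′ on the gene's strand, with octamer, CCAAT and TATAAA in capitals, CCAAT and octamer also where they lie on the other strand (ATTGG and ATGCAAAT).
H2AC6: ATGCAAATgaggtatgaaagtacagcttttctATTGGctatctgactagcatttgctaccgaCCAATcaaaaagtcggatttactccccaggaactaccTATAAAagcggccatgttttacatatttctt
H2BC12: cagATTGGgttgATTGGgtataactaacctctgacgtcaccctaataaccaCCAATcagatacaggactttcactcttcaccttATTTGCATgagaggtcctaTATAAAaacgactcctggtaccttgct
H2BC21: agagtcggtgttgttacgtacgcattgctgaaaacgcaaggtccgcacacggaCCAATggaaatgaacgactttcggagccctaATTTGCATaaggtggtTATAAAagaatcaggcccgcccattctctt
H2BC5: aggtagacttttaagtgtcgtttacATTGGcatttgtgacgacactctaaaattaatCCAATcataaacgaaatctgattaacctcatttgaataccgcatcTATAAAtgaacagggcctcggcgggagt

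The windows are chr6:26124042-26124171 (plus strand) for H2AC6, chr6:27146859-27146988 (minus) for H2BC12, chr1:149886683-149886812 (minus) for H2BC21 and chr6:26157991-26158120 (plus) for H2BC5. H2BC12 and H2BC21 have the octamer at the same place, -46 from the start, and TATAAA follows it, at -30 in H2BC21. H2AC6 has it at -130 on the other strand, and these are the bases counted at -123 for its neighbour H2BC4. H2BC5 has CCAAT and TATAAA but not these octamer letters in its window. These are matches of letters, not measured binding.

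POU2F1, a factor that binds the octamer, was itself among the genes that moved. Of 8 genes for histone gene transcription, 0 were higher and 0 lower in GFP against WT, 2 higher and 1 lower in OSK against GFP, 3 and 0 in OSK against GSTA4, and 0 and 2 in GSTA4 against GFP (edgeR). These comparisons called 22.2%, 45.9%, 47.8% and 29.2% of all genes in either direction. POU2F1 had a mean of 44.2 CPM in OSK, 30.7 in GFP, 24.2 in GSTA4 and 27.7 in WT. Its log2 fold change was 0.53 in OSK (edgeR adjusted p 2.55e-05) and -0.34 in GSTA4 (edgeR adjusted p 0.00535), both against GFP. HINFP, which acts at H4 promoters, was at -0.33 in OSK against GFP (edgeR adjusted p 0.00366), CDK2 at -0.55 in GSTA4 against GFP (edgeR adjusted p 0.000504), and YY1 at 0.19 in OSK against GFP (edgeR adjusted p 0.0304). NPAT, the coactivator of the clusters, was called in none of the 4 comparisons, with means from 23.5 to 27.8 CPM, and CCNE1 and CCNE2 were likewise not called in any of them.

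Genes that form or degrade histone 3′ ends showed mixed directions. Of 16 such genes, 1 was higher and 2 lower in GFP against WT, 4 higher and 3 lower in OSK against GFP, 3 and 2 in OSK against GSTA4, and 1 and 0 in GSTA4 against GFP (edgeR). The share called among all genes was 22.2%, 45.9%, 47.8% and 29.2% in that order. SLBP, which binds the stem-loop, had 62.1, 62.7 and 66.2 CPM in OSK and 68.5, 73.1 and 75.0 in GFP, a log2 change of -0.18 (SE 0.0662, edgeR adjusted p 0.0297), and passed in no other comparison. LSM11, a subunit of the U7 particle that cuts histone pre-mRNA after the stem-loop, had 5.34, 5.13 and 4.502 CPM in OSK and 9.73, 9.82 and 9.92 in GFP. It thus fell by 0.98 on the log2 scale (SE 0.169, edgeR adjusted p 7.61e-05), and LSM10, its partner in that particle, rose by 0.53 (edgeR adjusted p 0.000687).

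TUT4, a terminal uridylyltransferase, had 34.9, 37.7 and 37.4 CPM in OSK and 62.5, 52.5 and 56.7 in GFP, a log2 change of -0.64 (SE 0.085, edgeR adjusted p 2.94e-06). TUT7, of the same family, was at 0.25 (edgeR adjusted p 0.0362). CASP8AP2, which recruits the cleavage machinery, was called only in OSK against GSTA4, at 0.47 (edgeR adjusted p 0.00252). UPF1, a helicase that acts in histone mRNA decay, was at -0.22 in GFP against WT (edgeR adjusted p 0.0141).

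Genes of DNA replication did not order the groups as the histone genes did. The summed level of 28 S phase genes had a mean of 611 CPM ± 19.2 for WT, 710.4 ± 17.1 for GFP, 707 ± 13.7 for GSTA4 and 995 ± 36.8 for OSK (SD, n = 3). MKI67, a gene of dividing cells, had a mean of 10.5, 57.8, 42.8 and 154 CPM in the same order. In GFP against WT 15 of the 28 were called higher and 2 lower, while 8 of the 15 histone members were called lower and 0 higher. In OSK against GFP 19 were higher and 0 lower, in the direction of the histone members. In GSTA4 against GFP 1 was higher and 1 lower, and in OSK against GSTA4 20 were higher and 1 lower (edgeR). Among all genes, these 4 comparisons called 22.2%, 45.9%, 29.2% and 47.8%. The part of cell division in the histone levels was not tested.

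Histones that can be deposited outside S phase rose chiefly with OSK. Of 11 replacement histone genes, H1-10 included, 1 was higher and 1 lower in GFP against WT, 7 higher and 1 lower in OSK against GFP, 7 and 2 in OSK against GSTA4, and 1 and 2 in GSTA4 against GFP (edgeR). For all genes the share called was 22.2%, 45.9%, 47.8% and 29.2%. H3-3B, which encodes H3.3, had a mean of 559 CPM in OSK and 421 in GFP (log2 fold change 0.41, edgeR adjusted p 3.98e-05). H2AZ2 had 260.1 and 188 CPM (0.47, edgeR adjusted p 2.72e-06), H2AJ 10.5 and 6.45 (0.69, adjusted p 0.00585), and MACROH2A2 10.4 and 16.7 (-0.69, adjusted p 0.00124). H2AZ1 was higher than in GFP with either ORF, at 0.27 in OSK (edgeR adjusted p 0.00456) and 0.37 in GSTA4 (adjusted p 0.000535). Its level was also lower in GFP than in WT, at -0.25 (edgeR adjusted p 0.0167). For this gene GFP had the lowest mean, 110.9 CPM, while the OSK mean of 133.4 CPM was close to the WT mean of 131.7. CENPA, the H3 of centromeres, had the order of MKI67, with means of 6.002 CPM in OSK, 2.85 in GFP, 1.58 in GSTA4 and 0.455 in WT.

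Of 16 histone chaperone genes, 4 were higher and 3 lower in GFP against WT, 8 higher and 2 lower in OSK against GFP, 8 and 2 in OSK against GSTA4, and 1 and 1 in GSTA4 against GFP (edgeR). Calls among all genes made up 22.2%, 45.9%, 47.8% and 29.2% in these comparisons. HJURP, the chaperone of CENPA, had a mean of 27.98 CPM in OSK, 10.1 in GFP, 6.50 in GSTA4 and 1.55 in WT. ASF1B, which hands H3 and H4 to the replication fork, had 13.01, 9.29, 7.71 and 2.53 CPM in the same order, so that it rose by 1.90 on the log2 scale in GFP against WT (edgeR adjusted p 1.45e-06). CHAF1A, a subunit of the replication-coupled assembly factor CAF-1, was at 0.85 in OSK against GFP (edgeR adjusted p 3.32e-06), UBN1 of the H3.3 pathway at 0.49 (adjusted p 5.5e-07), RBBP7 at 0.42 (adjusted p 1.18e-05) and NASP at -0.25 (adjusted p 0.0066).

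RNAs made without a poly(A) tail give a measure of how much such RNA the libraries held. Of 25 listed, 2 entered the test, RN7SL1 and SNORD3A. The summed level of the list was 46.4 to 51.9 CPM in the GSTA4 libraries, 54.5 to 72.9 in OSK, 82.7 to 155 in GFP and 84.2 to 156 in WT. Nearly all of it was RN7SL1, with a mean of 47.9 of 48.7 CPM in GSTA4 and 64.4 of 65.5 in OSK. In GFP it made up 121.3 of 123.1 CPM, and in WT 110.3 of 111.4. Of the 2, 0 were higher and 1 lower in OSK against GFP and 0 and 2 in GSTA4 against GFP, and 0 and 0 in the other comparisons (edgeR). With 2 genes tested, the part of such RNA in the histone levels remains untested.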

How the data were processed

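The authors deposited 1 table of raw read counts per gene for the 12 poly(A) RNA libraries; per the submitters' processing notes, STAR 2.7.1a and featureCounts 1.6.2 were used and GRCh38/hg38 is among the builds named. The annotation release and strand setting are not given in the sources used here. The 20014 lines with no gene name held 0.485% to 0.822% of the reads and were left out. The other lines were fitted together in R 4.3.3 with edgeR 4.0.16 (TMM scaling, filterByExpr with the groups, 1 mean per group, quasi-likelihood test, two-sided, Benjamini-Hochberg adjustment over 15179 genes, threshold 0.05). SEs are the absolute log2 fold change over the square root of F. The fit was tested on simulated data for OSK against GFP: of 200 genes changed among 15179, 156 (78%) were recovered, with 11 false calls. Sequences and positions come from GENCODE release 29 transcripts and RefSeq (GRCh38.p14), which matched 66 and 70 of the 70 members.

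The members and the gene lists (known polyadenylated, germ line, transcription, 3′ end processing and decay, replacement histones, chaperones, S phase, RNAs without a tail, and cell type markers) were chosen with earlier results of these data known. Named genes are the 10 members of highest mean CPM, up to 5 called members per direction and comparison with the lowest adjusted p, members called in all comparisons but GSTA4 against GFP, the known polyadenylated and germ-line lists, up to 6 called genes of each other list by the F test, and SLBP, NPAT and CASP8AP2. The genes with few or no reads, divergent neighbours and overlapping genes were named after their values were seen. Alternatives were RLE or library-size scaling, other filters, DESeq2 1.42.0, a replicate block, WT as control, the compared libraries alone, and each library left out. Floors cover counting error only. The values of 1 tested member, and 1 of the other settings for the summed level, are not reported here.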

Additional observations from a re-analysis of the deposited data

How the results depend on the processing

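Over the 4 comparisons, 903 values of named members were recomputed in 19 settings, with WT as the control left aside. The tested members H2AC11, H2BC15 and H2BC18 were not among those recomputed one by one. Of the 903 values, 860 kept their side of the threshold, 23 lost a call and 20 gained one. Among values called in either fit, 0 changed direction. Values without a call could change sign, as H2BC11 did in GFP against WT (-1.67 to 0.04 with 1 library left out). Taking WT as the control changed most: in OSK, 6 members passed (3 higher, 3 lower) in place of 11, with H2AC6 at -0.92, H2BC5 at -0.89 and H2BC8 at -1.66; in GSTA4, 4 passed, with H2BC12 higher (0.47) and H2AC6 (-1.52), H2BC5 (-1.81) and H2BC21 (-0.92) lower, while H1-2 was at -0.36 and did not pass (edgeR adjusted p 0.288). Leaving out 1 library at a time gave 9 to 12 members called in OSK against GFP, 4 to 10 in GFP against WT (4 without GFP replicate 2), 3 to 7 in OSK against GSTA4, 3 to 9 in GSTA4 against GFP (9 without WT replicate 1) and 9 to 13 by the F test. With no filter on low counts, 8 passed in GSTA4 against GFP. The cause was not tested. H2BC5 in OSK against GSTA4 missed the threshold with library size alone (edgeR adjusted p 0.0691) and in DESeq2 (0.113). H3C6 in GFP against WT missed it with only the 6 libraries compared (0.0582).

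The summed level of all 70 members ranged over libraries left out from 214 to 257 CPM in WT, 149 to 156 in GFP, 170.5 to 192 in GSTA4 and 263 to 265 in OSK. With library size alone, OSK was at 255.2.

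The labels do not say that the replicate numbers pair the libraries. Over 18 pairs of the same number, deviations from the group means correlated at -0.019 to 0.153, over 0.1 in 3 of them. Over pairs of different numbers they correlated at -0.098 to 0.077. The 3 were WT replicate 1 with replicate 1 of GFP (0.153), GSTA4 (0.12) and OSK (0.106). Without a label for it, the numbers were not taken as a pairing in the main fit, and a link among the replicate 1 libraries was not tested. With a replicate block, 12 members passed in OSK against GFP, 9 in GFP against WT, 6 in OSK against GSTA4, 6 in GSTA4 against GFP and 12 by the F test; in GSTA4 against GFP the block added H2AC6 (0.58) and H2BC5 (0.96), and in OSK against GSTA4 H2AC6 (0.64). The 55 members under the filter had at most 73 reads over the 12 libraries, and levels under 3 reads, or 0.177 to 0.228 CPM, were not detectable at this depth.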
